A study of Mus musculus with 4 samples.

Results

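The 43 genes described here sense oxygen, respond to low oxygen, carry glucose and lactate across membranes, or encode the enzymes that turn glucose into pyruvate and lactate. They were chosen by name from a table of 16591 genes, in which 41 of them had a row and 38 had enough counts to be tested. P4ha2 (counts of 3, 0, 0 and 3 in sensitive replicates 1 and 2 and resistant replicates 1 and 2), Ndrg1 (2, 5, 8 and 7) and Eno2 (0, 0, 2 and 2) fell below the filter on low counts. Mxd5 matched no symbol of the annotation, and Ldhb had no row in the table used here. The list was drawn up with earlier results of the same comparison in view, including the values of Slc16a3 and Bnip3. Counts of called members therefore describe these genes and give no independent evidence about the pathway.

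RNA was sequenced from 2 lines of Eμ-Myc cells, which are mouse B-lymphoma cells of strain C57BL/6 in which an immunoglobulin heavy-chain enhancer drives Myc. The line JQ1S is sensitive to JQ1, an inhibitor of the BET bromodomain proteins that bind acetylated histones, and the line JQ1R is resistant to it. Each line gave 2 libraries from early-passage cells kept in high-glucose medium with serum, asparagine and 2-mercaptoethanol, with no drug named. There is a single line of each kind, so resistance and every other way in which the lines differ cannot be told apart, and no label states whether replicates came from separate cultures. P-values then measure only the spread between these libraries, which may be technical. The oxygen level of the cultures was not given in the sources used here.

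Total counts per library ranged from 10346007 to 13048103. The sensitive libraries differed from each other more than the resistant libraries did, with a median absolute log2 difference over the 11945 tested genes of 0.12 against 0.08. The B-lineage genes Cd79a, Cd79b, Pax5, Ebf1 and Ptprc each had at least 1146 counts in every library, whereas Vpreb1, a surrogate light-chain gene of B-cell precursors, had 4 to 7 counts and was below the filter. The summed level of the 5 T-cell markers was 0 to 0.231 CPM (counts per scaled library total, times 1000000), that of the 6 myeloid markers 3.78 to 5.47 CPM, and that of the 5 erythroid markers 0.308 to 0.389 CPM. The 5 fibroblast markers had no row, and of the 4 endothelial markers, summed at 88.7 to 100.3 CPM, nearly all counts fell on Pecam1, which B cells also express.

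Cells read oxygen through the hypoxia-inducible factors (HIF). When oxygen is present, prolyl hydroxylases of the EGLN family mark the HIF alpha subunit, the VHL ubiquitin ligase binds the mark and the subunit is destroyed. When oxygen falls the subunit persists, pairs with ARNT and binds short DNA elements near genes for glucose uptake, glycolysis, lactate export, mitophagy and collagen maturation. MYC also drives many glycolytic genes, so both inputs meet on this pathway in lymphoma cells.

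Of the 38 tested members 9 were called higher in resistant cells and 0 lower, by edgeR's quasi-likelihood test with Benjamini-Hochberg adjustment over all tested genes at 0.05. Over all tested genes 2.2% were called higher and 1.52% lower, 3.73% in all. Both resistant libraries lay above both sensitive ones in 17 members and below them in 2, against 24.1% and 23.2% of all tested genes. All 9 were among the 20 tested genes of oxygen sensing, hypoxia response and transport, whose median log2 change was 0.31. None of the 18 tested genes of glycolytic enzymes and pyruvate fate was called by edgeR, and DESeq2 and limma-voom also called 0. The median log2 change of the 18 was 0.01, and 2 of them, Hk2 and Pgk1, had an unadjusted p below 0.05 in edgeR. The median over all 38 was 0.11, against 0.0033 over all tested genes. No member was lower at an unadjusted p below 0.05, and DESeq2 and limma-voom called 0 lower as well. The share of all tested genes at that unadjusted p was not counted. Whether the gene groups differ from each other was not tested.

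The number of members called moved with the test and the libraries used. DESeq2 called 5 members higher, where it called 1.02% of all genes higher and 0.72% lower. Limma-voom called 10 (2.2% and 1.49%), and a fit with the replicate number as a block called 11 (2.9% and 2.08%). Without sensitive replicate 1, edgeR called 12 members higher and 5 lower, beside 5.41% and 5.85% of all genes. Without sensitive replicate 2 it called 16 higher and 1 lower, beside 4.9% and 4.78%. Without resistant replicate 1 it called 9 higher and 0 lower (1.49% and 0.958%), and without resistant replicate 2 it called 7 and 0 (1.3% and 0.908%).

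**Figure D1:**
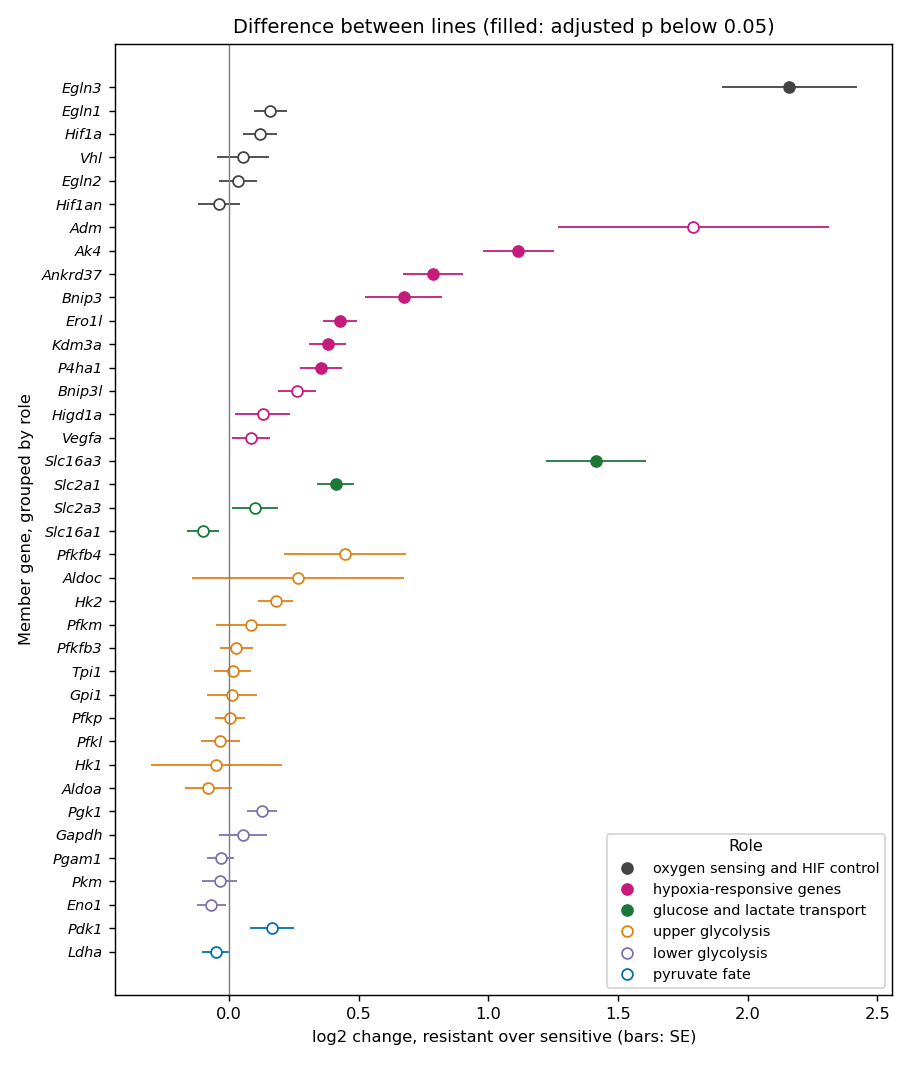
Log2 change of each tested member, resistant over sensitive, with its standard error, grouped by role. Filled points passed an adjusted p of 0.05. The 9 filled points are all hypoxia-responsive, oxygen-sensing or transport genes, from P4ha1 at 0.36 to Egln3 at 2.16, and the enzymes of glycolysis lie between -0.08 and 0.45.

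Among the genes of oxygen sensing, the prolyl hydroxylase gene Egln3, itself a known HIF target, was the member with the largest log2 change. It had 1.08 and 1.46 CPM in the JQ1S pair and 6.04 and 5.22 CPM in the JQ1R pair, from 14, 15, 66 and 62 counts. Both resistant libraries lay above both sensitive ones, on few counts. Egln3 rose 4.47-fold (log2 change 2.16 ± 0.26, SE from the fit, edgeR adjusted p = 7.07e-05). It lies on chromosome 12 at 54178981 to 54203860 of GRCm38.

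The other sensing genes were expressed at steadier levels and none passed the test. Egln1, the main oxygen-sensing hydroxylase in most cells, stood at 86.5 and 84.5 CPM in the JQ1S pair and 94.0 and 97.0 CPM in the JQ1R pair (log2 change 0.16 ± 0.06, edgeR adjusted p = 0.206). Both resistant libraries lay above both sensitive ones. Egln2, the third hydroxylase, stood at 54.0, 53.4, 56.7 and 53.5 CPM in the same order of libraries, with overlap.

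Hif1a, which encodes the regulated HIF subunit, had 107 and 96.4 CPM in the JQ1S pair and 110 and 112 CPM in the JQ1R pair (log2 change 0.12 ± 0.07, edgeR adjusted p = 0.383). Its resistant libraries were the higher ones by a small margin. With only sensitive replicate 2 kept, the log2 change of Hif1a became 0.20, but it became 0.05 with only sensitive replicate 1 kept. The absolute log2 difference between the lines (0.125) was smaller than that between the sensitive libraries (0.150). Vhl, the substrate receptor of the ligase, ranged only from 20.7 to 22.1 CPM over the 4 libraries. Hif1an, the asparagine hydroxylase that blocks HIF's coactivator binding, had 53.4 and 52.9 CPM in the JQ1S pair and 55.6 and 48.2 CPM in the JQ1R pair. HIF is regulated mainly as a protein, which was not measured here. Scaled by merged exon length, Egln1 stood at 23.8 CPM per kilobase in sensitive cells, Egln2 at 19.2 and Egln3 at 0.476. In resistant cells they stood at 26.6, 19.7 and 2.11 CPM per kilobase. Merged exons span 3594 bases in Egln1 and 2800 in Egln2, and the longest coding transcripts 3594 and 2107 bases. In sensitive cells the order of Egln1 and Egln2 thus rests on the length used, whereas Egln3 was the lowest in both lines.

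The hypoxia-responsive genes held 6 of the 9 members called, out of 10 tested. The 12 with a row summed to 662 and 777.4 CPM in the JQ1S pair and 928.7 and 983.6 CPM in the JQ1R pair, 32.9% more in the mean. Ak4, a mitochondrial adenylate kinase on chromosome 4 (101419277 to 101466995), had 12.3 and 10.6 CPM in the JQ1S pair and 21.8 and 28.1 CPM in the JQ1R pair. It rose 2.17-fold (log2 change 1.12 ± 0.14, edgeR adjusted p = 7.67e-05), and sensitive replicate 2 was its lowest library, unlike the other called members in this group.

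Ankrd37, an ankyrin-repeat gene induced by HIF, on chromosome 8 (45996902 to 46005707), had 39.3 and 58.1 CPM in the JQ1S pair and 82.8 and 83.3 CPM in the JQ1R pair. The resistant libraries were nearly equal while the sensitive ones differed by 1.48-fold. Its log2 change was 0.79 ± 0.12 (edgeR adjusted p = 5.91e-04). Leaving out sensitive replicate 1 gave 0.52 and leaving out sensitive replicate 2 gave 1.08. DESeq2 did not call it (adjusted p = 0.183). Part of Ankrd37's exons, 26.4% of the bases, overlap Lrp2bp and Ufsp2 on the other strand, whose log2 changes of 0.45 and 0.05 did not pass the test in edgeR (adjusted p = 0.600 and 0.796).

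Bnip3 and Bnip3l encode related proteins of the outer mitochondrial membrane that tag mitochondria for mitophagy. Bnip3, on chromosome 7 (138890836 to 138909519), had 43.6 and 74.3 CPM in the JQ1S pair and 87.4 and 98.0 CPM in the JQ1R pair. The gap within the sensitive pair (log2 ratio 0.77) was larger than the fitted 1.60-fold rise between the lines. The log2 change of Bnip3 was 0.67 ± 0.15 (edgeR adjusted p = 0.0165). Leaving out sensitive replicate 1 gave 0.32 and leaving out sensitive replicate 2 gave 1.09, and DESeq2 gave an adjusted p of 0.829. Bnip3l had 110 and 129 CPM in the JQ1S pair and 145 and 141 CPM in the JQ1R pair, without overlap (log2 change 0.26 ± 0.07, edgeR adjusted p = 0.0581). Of the 50-base stretches in a Bnip3 transcript, 62.4% also occur in transcripts of 6 other genes, and 23.4% of those of Bnip3l occur in its pseudogene, so counts of both depend on how shared reads were treated.

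The remaining called genes of this group rose by smaller amounts. Ero1l, which makes disulfide bonds in the endoplasmic reticulum, had 184 and 210 CPM in the JQ1S pair and 260 and 270 CPM in the JQ1R pair (log2 change 0.43 ± 0.07, edgeR adjusted p = 7.75e-04). Kdm3a, a histone H3 lysine demethylase induced by HIF, had 116, 133, 155 and 169 CPM in the same order (0.38 ± 0.07, edgeR adjusted p = 0.00492). P4ha1, a subunit of the collagen prolyl hydroxylase, had 59.5, 68.7, 77.1 and 86.4 CPM (0.36 ± 0.08, edgeR adjusted p = 0.0194). In all 3 genes both resistant libraries were above both sensitive ones. Without resistant replicate 2 the calls of Kdm3a (adjusted p = 0.0793) and P4ha1 (adjusted p = 0.318) were lost in edgeR, and DESeq2 did not call P4ha1 (adjusted p = 0.0848).

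The other genes of the group did not pass. Vegfa, the angiogenic growth factor and a classic HIF target, had 59.6 and 62.4 CPM in the JQ1S pair and 62.1 and 67.1 CPM in the JQ1R pair, with overlap (log2 change 0.09 ± 0.07, edgeR adjusted p = 0.603). Higd1a, a small protein of the mitochondrial inner membrane, had 37.8, 29.2, 35.6 and 38.2 CPM, with sensitive replicate 2 alone low. With only sensitive replicate 2 kept, the log2 change of Higd1a became 0.34, but it became -0.03 with only sensitive replicate 1 kept. Adm, which encodes the vasodilator peptide adrenomedullin, had 2, 9, 16 and 22 counts (edgeR adjusted p = 0.0760, limma-voom 0.0439) and passed the filter only through the resistant libraries, so that a higher value there was a condition of its being tested.

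**Figure D2:**
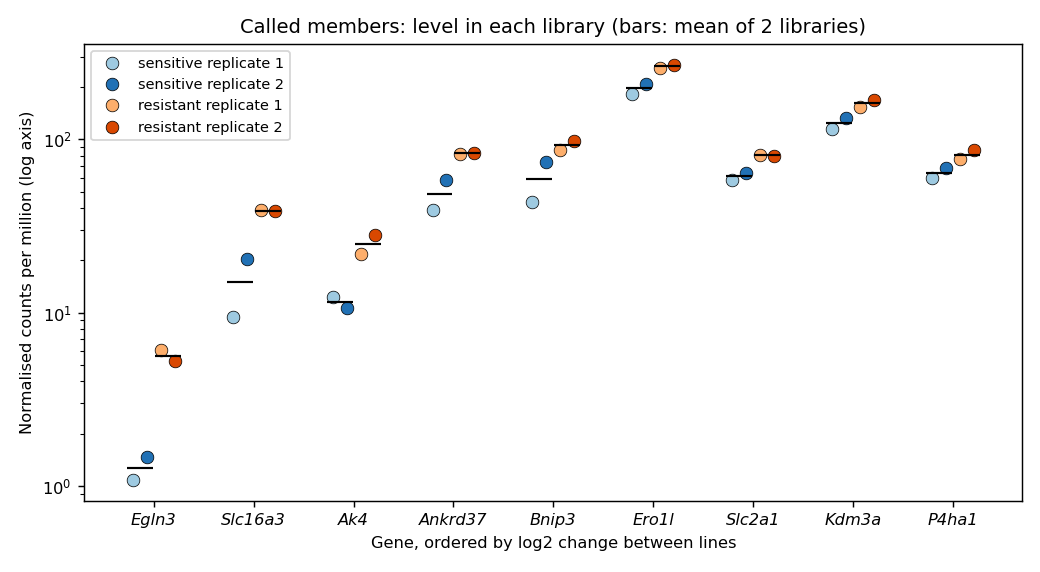
Normalised CPM, on a log axis, of the 9 called members in each of the 4 libraries, with a bar at the mean of each line. In every gene both resistant libraries lie above both sensitive ones, and the sensitive libraries lie farthest apart in Slc16a3, Bnip3 and Ankrd37.

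Glucose enters cells through transporters of the SLC2A family and lactate leaves through the monocarboxylate transporters of the SLC16A family. Slc16a3, which encodes MCT4, the lactate exporter induced in hypoxic and highly glycolytic cells, lies on chromosome 11 (120948480 to 120960868) and had 9.40 and 20.5 CPM in the JQ1S pair and 38.9 and 38.4 CPM in the JQ1R pair. The resistant pair agreed closely, whereas the sensitive pair differed by 2.18-fold (log2 ratio 1.12, 95% exact counting interval 0.80 to 1.46). Slc16a3 rose 2.67-fold in the fit (log2 change 1.42 ± 0.19, edgeR adjusted p = 2.71e-04). Leaving out sensitive replicate 1 gave a log2 change of 0.91 and leaving out sensitive replicate 2 gave 2.04, and in DESeq2 the gene missed the threshold (adjusted p = 0.288).

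Slc16a1, which encodes MCT1, the more widely expressed lactate transporter and a MYC target, had 399 and 354 CPM in the JQ1S pair and 350 and 353 CPM in the JQ1R pair (log2 change -0.10 ± 0.06, edgeR adjusted p = 0.446). It was the only member of the 4 transporters with a negative log2 change, and sensitive replicate 1 stood above the other 3 libraries. With only sensitive replicate 1 kept, the log2 change of Slc16a1 became -0.18, but it became -0.01 with only sensitive replicate 2 kept. Per kilobase of exon, Slc16a1 had a level of 85.1 CPM in JQ1S and 79.4 CPM in JQ1R and Slc16a3 of 2.81 and 7.27 CPM, so Slc16a1 was the more abundant of the pair in both lines.

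Slc2a1, which encodes the basal glucose transporter GLUT1, on chromosome 4 (119108711 to 119137983), had 58.1 and 64.2 CPM in the JQ1S pair and 81.7 and 80.6 CPM in the JQ1R pair. Both pairs agreed within 1.11-fold, and the gene rose 1.33-fold (log2 change 0.41 ± 0.07, edgeR adjusted p = 0.00237, DESeq2 adjusted p = 0.00973). Slc2a3, which encodes the high-affinity transporter GLUT3, had 32.8, 30.1, 32.4 and 35.2 CPM, with overlap (log2 change 0.10 ± 0.09, edgeR adjusted p = 0.622).

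The DNA upstream of the called members is shown next, because HIF binds the short core ACGTG or GCGTG. RefSeq promoter windows on GRCm38.p6 were found for 39 of the 43 members, and the 250 bases before the first listed start of each gene were searched on both strands. The core overlaps the E-box CACGTG, which MYC and its partners bind, and a CACGTG was counted as 1 match. All 9 called members had a match, as did 19 of the 27 matched members that were tested and not called. The share was 59.2% over the 8302 tested genes with a window. The called members all belong to the oxygen-sensing, hypoxia-responsive and transport groups, in which 16 of 19 windows had a match. Among glycolytic enzymes and pyruvate fate 14 of 20 had one. Whether a match goes with a call was not tested. The median GC content was 67.6% in the windows of called members and 59.2% in those of members not called, against 60% over the tested genes, and its part in the match count was not tested. A match is a description of the letters and not evidence of binding. The windows of Slc16a3, Egln3, Ankrd37 and Bnip3 are printed as called members from each role, followed by Ldha, Pgk1 and Gpi1 as genes that were not called, a choice made after their values were seen. They read 5′ to 3′, capitals mark the core on either strand, and CACGT or CACGC is the core read on the other strand.
Slc16a3, chr11:120948817-120949066, plus strand: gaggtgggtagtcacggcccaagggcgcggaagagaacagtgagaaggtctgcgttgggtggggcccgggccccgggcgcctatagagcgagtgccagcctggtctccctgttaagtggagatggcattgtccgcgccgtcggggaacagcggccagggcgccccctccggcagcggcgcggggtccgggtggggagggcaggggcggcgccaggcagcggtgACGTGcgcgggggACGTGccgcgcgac
Egln3, chr12:54203875-54204124, minus strand: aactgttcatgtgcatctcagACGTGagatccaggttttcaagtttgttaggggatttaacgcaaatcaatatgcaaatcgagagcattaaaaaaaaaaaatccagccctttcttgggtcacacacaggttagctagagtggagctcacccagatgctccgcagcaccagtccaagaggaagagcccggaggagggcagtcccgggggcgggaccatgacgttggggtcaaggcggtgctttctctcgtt
Ankrd37, chr8:45999851-46000100, minus strand: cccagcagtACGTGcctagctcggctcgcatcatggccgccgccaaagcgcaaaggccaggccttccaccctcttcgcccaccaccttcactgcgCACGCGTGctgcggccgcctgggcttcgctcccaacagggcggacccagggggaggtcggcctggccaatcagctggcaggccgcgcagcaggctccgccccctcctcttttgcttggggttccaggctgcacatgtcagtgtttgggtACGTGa
Bnip3, chr7:138909507-138909756, minus strand: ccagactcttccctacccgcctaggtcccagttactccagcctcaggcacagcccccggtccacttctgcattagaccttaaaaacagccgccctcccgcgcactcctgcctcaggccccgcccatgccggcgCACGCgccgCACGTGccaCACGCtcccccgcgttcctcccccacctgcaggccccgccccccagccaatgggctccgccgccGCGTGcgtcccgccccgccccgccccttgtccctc
Ldha, chr7:46845554-46845803, plus strand: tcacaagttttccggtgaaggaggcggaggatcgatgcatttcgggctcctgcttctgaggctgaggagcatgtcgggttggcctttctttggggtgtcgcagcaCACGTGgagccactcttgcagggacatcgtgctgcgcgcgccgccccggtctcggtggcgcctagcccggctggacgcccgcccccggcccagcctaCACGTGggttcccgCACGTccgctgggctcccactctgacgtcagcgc
Pgk1, chrX:106186850-106187099, plus strand: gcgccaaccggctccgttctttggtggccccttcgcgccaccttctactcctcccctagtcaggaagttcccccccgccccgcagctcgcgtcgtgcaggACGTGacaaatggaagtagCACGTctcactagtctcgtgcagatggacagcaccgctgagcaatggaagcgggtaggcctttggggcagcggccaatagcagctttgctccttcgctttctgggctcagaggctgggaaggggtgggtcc
Gpi1, chr7:34230337-34230586, minus strand: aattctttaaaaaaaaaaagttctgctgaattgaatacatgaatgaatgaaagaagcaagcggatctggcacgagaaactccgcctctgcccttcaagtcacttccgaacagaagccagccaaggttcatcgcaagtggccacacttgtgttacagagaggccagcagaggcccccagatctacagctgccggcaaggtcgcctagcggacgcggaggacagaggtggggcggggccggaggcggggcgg

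Slc16a3 holds 2 copies of ACGTG 27 and 14 bases before its start, and Egln3 a single copy far from it, 229 bases upstream. The GENCODE annotation places 14 bases of the Slc16a3 window and 17 of the Ankrd37 window in untranslated exons. The windows of Slc16a3, Ankrd37 and Ldha lie within the annotated span of their gene. Upstream here therefore means before the first listed RefSeq start. The Bnip3 window has 4 matches, 1 of them the E-box CACGTG. Ldha has 2 E-boxes and a further core, and Pgk1 a pair of cores 150 and 131 bases upstream, and neither gene was called in edgeR. The Gpi1 window has no match. E-boxes were present upstream of 5 of the 39 members, or 12.8%, and of 9.05% of the tested genes.

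**Figure D3:**
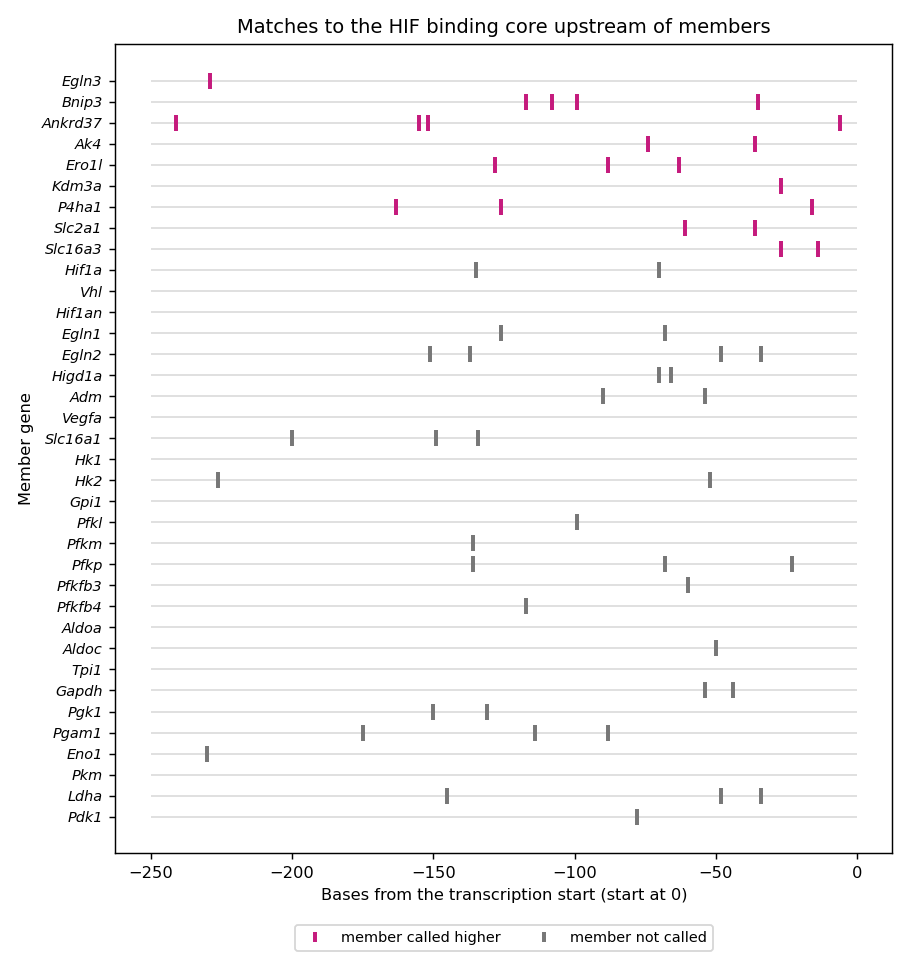
Matches to the HIF core, on either strand, in the 250 bases before the start of each tested member with a RefSeq window, against the distance from the start in bases. Matches are present in all 9 called members and in 19 of the 27 members not called. The called members all come from the oxygen-sensing, hypoxia-responsive and transport groups, in which 16 of 19 windows had a match.

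No glycolytic enzyme was called between the lines by edgeR, DESeq2 or limma-voom with all 4 libraries. The 19 genes of glycolytic enzymes and pyruvate fate with a row took 0.848% and 0.971% of all JQ1S counts and 0.924% and 0.882% of all JQ1R counts. Their summed level was 8525 and 9760 CPM in the JQ1S pair and 9238 and 8768 CPM in the JQ1R pair. Both resistant libraries lay between the sensitive ones, whose sum differed by 14.5%, whereas the means of the lines differed by -1.53%.

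In the upper part of the pathway, hexokinase 2 (Hk2), which traps glucose in the cell, had 122 and 119 CPM in the JQ1S pair and 128 and 145 CPM in the JQ1R pair. Its libraries did not overlap (log2 change 0.18 ± 0.07, edgeR adjusted p = 0.176). The log2 change of Hk2 became 0.20 with only sensitive replicate 2 kept, and 0.17 with only sensitive replicate 1 kept. Per kilobase of exon Hk2 stood at 20.2 CPM in sensitive cells and Hk1, the housekeeping isoform, at 0.530 CPM. Of the phosphofructokinase subunits, the liver-type Pfkl stood at 29.0 CPM per kilobase in sensitive cells, the platelet-type Pfkp at 15.3 and the muscle-type Pfkm at 5.10. In resistant cells they stood at 28.3, 15.4 and 5.40 CPM per kilobase. Merged exons span 13401 bases in Pfkp and 6675 in Pfkl, but their longest coding transcripts 4145 and 3730 bases. The gap between Pfkl and Pfkp thus rests on the length used.

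Gpi1, which converts glucose 6-phosphate to fructose 6-phosphate, had 644 and 879 CPM in the JQ1S pair and 793 and 740 CPM in the JQ1R pair (log2 change 0.01 ± 0.10, edgeR adjusted p = 0.977). Aldoa, the main aldolase, had 730 and 972 CPM in the JQ1S pair and 834 and 776 CPM in the JQ1R pair (-0.08 ± 0.09, edgeR adjusted p = 0.717). In both genes the sensitive libraries were the extremes and the resistant libraries lay inside them. These genes were called in opposite directions according to which sensitive library was kept. Without sensitive replicate 1, Gpi1 (log2 change -0.20) and Aldoa (-0.27) were called lower in resistant cells, with edgeR adjusted p-values of 2.66e-04 and 5.89e-08. Without sensitive replicate 2, Gpi1 (0.25) and Aldoa (0.14) were called higher, with adjusted p-values of 3.1e-06 and 0.0269, and in each case the lone sensitive library was assumed to vary like the resistant pair. Tpi1, the triose isomerase, showed the same layout of libraries, at 483, 577, 558 and 513 CPM.

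Pfkfb3, which makes the activator fructose 2,6-bisphosphate, ranged from 88.3 to 94.9 CPM over the 4 libraries. Pfkfb4, a hypoxia-inducible isoform, had 34, 31, 46 and 41 counts, higher in both resistant libraries (log2 change 0.45 ± 0.24, edgeR adjusted p = 0.358). Aldoc had 10 to 14 counts per library.

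In the lower part, Pkm, the pyruvate kinase gene, had 1817 and 2166 CPM in the JQ1S pair and 2015 and 1869 CPM in the JQ1R pair (log2 change -0.04 ± 0.07, edgeR adjusted p = 0.847). Eno1, the main enolase, had 1626, 1788, 1663 and 1592 CPM (-0.07 ± 0.06, edgeR adjusted p = 0.584), and Pgam1, the phosphoglycerate mutase, ranged from 827 to 865 CPM. Per kilobase of merged exons, Pgam1 stood at 431, Pkm at 398, Eno1 at 317 and Aldoa at 292 CPM in JQ1S. Merged exons span 5379 bases in Eno1 and 5001 in Pkm, against 2027 and 2432 in their longest coding transcripts. In Pgam1 these lengths were 1982 and 1775 bases, so the order of these genes rests on the length used. Pgk1, the phosphoglycerate kinase, had 478 and 526 CPM in the JQ1S pair and 554 and 543 CPM in the JQ1R pair, the only tested gene of the lower part without overlap between the lines (0.13 ± 0.06, edgeR adjusted p = 0.278). With only sensitive replicate 1 kept, the log2 change of Pgk1 became 0.20, but it became 0.06 with only sensitive replicate 2 kept.

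Several of these enzymes have close copies elsewhere in the genome, and their counts are uncertain. Of the 50-base stretches in a Gapdh transcript, 82.5% occur also in transcripts of 222 other genes, and Gapdh, an abundant housekeeping gene in most cells, stood at only 12.1 CPM per kilobase in sensitive cells against 398 CPM per kilobase for Pkm. The share was 72.2% for Eno1, whose copy Eno1b had 7527 to 8804 counts per library, and 68.0% for Pgk1, whose copy Pgk1-rs7 had 1284 to 1765 counts and was itself called higher (log2 change 0.24, edgeR adjusted p = 0.0371). Shares of 41.5% for Pgam1, 34.4% for Pkm and 16.7% for Ldha were lower. How reads shared with copies were counted was not given in the sources used here.

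Pyruvate is reduced to lactate by lactate dehydrogenase or oxidised in mitochondria by pyruvate dehydrogenase, which PDK1 inhibits by phosphorylating it. Ldha, the lactate-forming subunit, had 1112 and 1107 CPM in the JQ1S pair and 1097 and 1045 CPM in the JQ1R pair, slightly lower in both (log2 change -0.05 ± 0.05, edgeR adjusted p = 0.679). Pdk1 had 132 and 168 CPM in the JQ1S pair and 169 and 166 CPM in the JQ1R pair (0.17 ± 0.08, edgeR adjusted p = 0.335). Sensitive replicate 1 alone was low in Pdk1, and the log2 change was 0.34 without sensitive replicate 2 (adjusted p = 3.85e-07) but 0.00 without sensitive replicate 1 (adjusted p = 0.998).

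**Figure D4:**
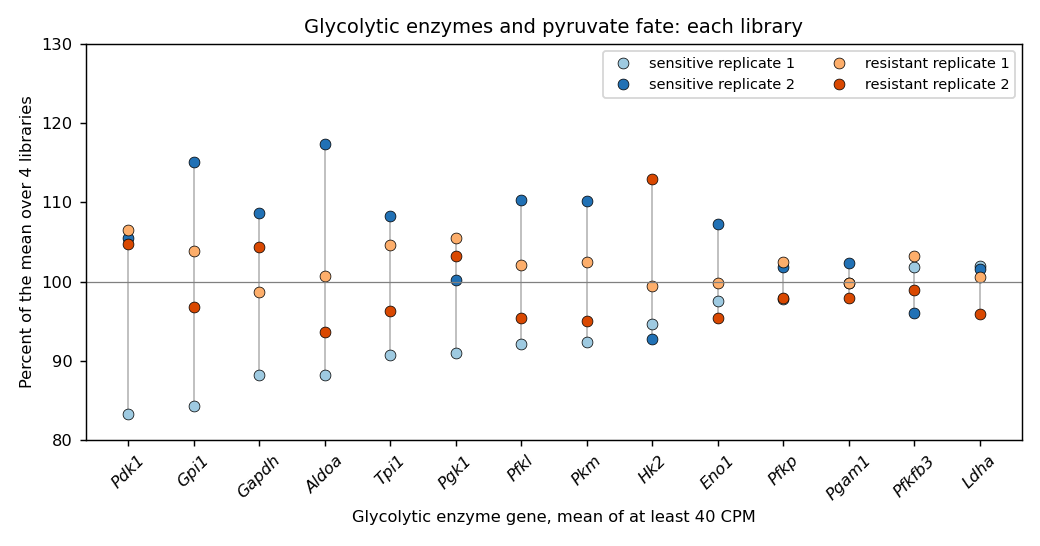
Level of each glycolytic or pyruvate-fate gene with a mean of at least 40 CPM (14 genes) in each library, as a percent of that gene's mean over the 4 libraries. Sensitive replicate 1 is the lowest library in 9 of the 14 genes and sensitive replicate 2 the highest in 8, and in 6 both resistant libraries lie between the sensitive ones.

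The difference between lines was then set beside the difference between the sensitive libraries, which the choice of members had in view. Sensitive replicate 2 was above sensitive replicate 1 by more than the 95% exact counting interval in 18 of the 38 tested members and below it in 3, where 10.4% and 10.2% of all tested genes were. The interval covers counting error only and each ratio compares a single library with another. It narrows as counts rise, so genes with many counts pass it at smaller ratios. The shares over all tested genes were not matched to the members for counts. Among the 18 glycolytic and pyruvate-fate genes 10 were above and 0 below, among them Gpi1 (log2 ratio 0.45, interval 0.41 to 0.49) and Aldoa (0.41, 0.37 to 0.45). Among the 10 hypoxia-responsive genes 7 were above, led by Bnip3 (0.77, 0.61 to 0.93) and Ankrd37 (0.56, 0.39 to 0.74) apart from the scarce Adm, and Higd1a was below (-0.37, -0.59 to -0.16). The genes of oxygen sensing showed 0 above and 1 below, Hif1a (-0.15, -0.27 to -0.03).

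Within the resistant line, resistant replicate 2 was above resistant replicate 1 beyond the counting interval in 5 of 38 members and below it in 9, where 4.04% and 4.74% of all tested genes were. Of the 18 glycolytic and pyruvate-fate genes 8 were lower in resistant replicate 2, among them Pkm (-0.11), Aldoa (-0.11) and Gpi1 (-0.10), and 1 was higher, Hk2 (0.18). Such small ratios passed the interval on many counts (22018 and 22207 for Pkm), which most tested genes were not matched to. The median absolute log2 difference over the 38 members was 0.21 within the sensitive pair, 0.10 within the resistant pair and 0.11 from line to line, against 0.12, 0.08 and 0.11 over all tested genes.

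The absolute log2 difference between the lines exceeded that between the sensitive libraries in 17 of the 38 members, where 46.6% of all tested genes did so. By role this held for 5 of 6 oxygen-sensing genes, 7 of 10 hypoxia-responsive genes, 2 of 4 transporters and 3 of 18 glycolytic and pyruvate-fate genes. Of the 9 called members it held for 8, all but Bnip3. A call already requires a difference between lines that is large against the spread within lines, so this count adds no separate support. Both quantities use the sensitive libraries and are not independent of each other.

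**Figure D5:**
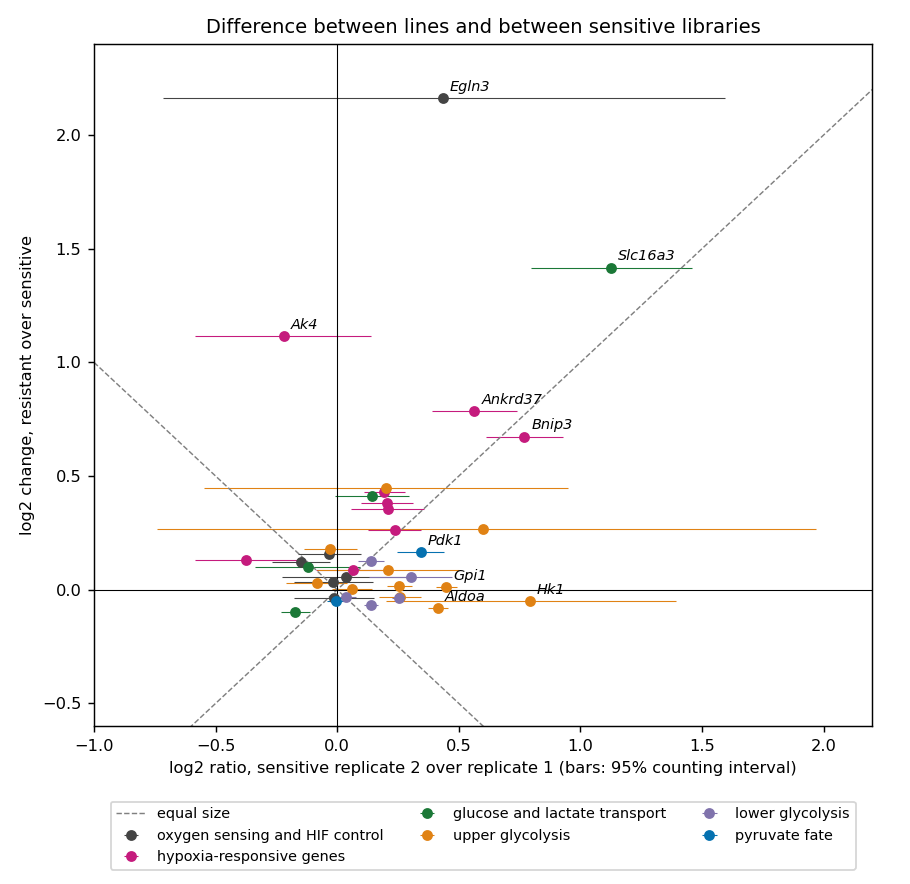
Log2 change between lines against the log2 ratio of sensitive replicate 2 over sensitive replicate 1, with its 95% counting interval, for 37 tested members (Adm, with 2 and 9 counts in the sensitive libraries, is left out). Dashed lines mark equal size. Egln3, Ak4, Slc16a3 and Ankrd37 lie above them, and Gpi1, Aldoa and Hk1 lie near 0 on the vertical axis while spread to the right.

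Other genes of the pathway were read from lists that were also set up with earlier results of these data known. Of 30 tested further hypoxia targets 3 were called higher and 0 lower in edgeR, where 2.2% and 1.52% of all tested genes were. In edgeR 10 had an unadjusted p below 0.05. Of these 10, Hmox1 (log2 change -0.63, edgeR adjusted p = 0.0952) and Tfrc (-0.22, edgeR adjusted p = 0.125) were lower, and the rest were higher. The share of all tested genes at that unadjusted p was not counted, here or for the lists that follow. Ddit4 (REDD1), which restrains mTORC1 in hypoxia, had 67.4 and 87.2 CPM in the JQ1S pair and 116 and 122 CPM in the JQ1R pair (log2 change 0.63 ± 0.09, edgeR adjusted p = 4.11e-04). Narf had 30.1, 33.1, 43.8 and 43.9 CPM (0.48 ± 0.08, edgeR adjusted p = 0.00277). Cdkn1b, the cyclin-dependent kinase inhibitor p27, had 67.7, 76.5, 88.9 and 98.6 CPM (0.38 ± 0.08, edgeR adjusted p = 0.00736, or 0.159 without resistant replicate 2). In these 3 genes both resistant libraries were above both sensitive ones, and DESeq2 called all 3. The median log2 change of the 30 was 0.09.

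In the remaining pathway lists edgeR called 0 genes, as did DESeq2 and limma-voom. Tested were 11 other genes of HIF machinery and 13 other glycolysis isoforms and regulators. Pyruvate entry to mitochondria had 11 tested genes, the pentose phosphate pathway 10 and gluconeogenesis 3. Unadjusted edgeR p-values were below 0.05 for 1, 1, 0, 3 and 1 of them, in that order. As edgeR called only 3.73% of all tested genes, lists this short can hold 0 calls without differing from other genes. Whether they differ from the hypoxia targets was not tested.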

How the data were processed

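RNA was sequenced in 4 libraries, 2 of a JQ1-sensitive and 2 of a JQ1-resistant line. The authors deposited whole-number read counts per Ensembl gene, with no normalization. Per the submitters' processing notes the tools were HTSeq, TopHat, Bowtie2, cutadapt 1.7, limma and FastQC, with mm10 and GRCm38 as builds. The strand setting and the annotation used were not given in the sources used here. No row of the table summed to fewer than 4 counts. GENCODE M21 (GRCm38) gave symbols and exons for 16407 of 16591 identifiers. Levels per kilobase divide CPM by the merged length of all exons annotated to a gene, which can exceed the length of its transcripts.

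Counts were fitted with edgeR 4.0.16 (R 4.3.3; glmQLFit and glmQLFTest, TMM factors, line as the only term) on 11945 genes that passed filterByExpr (minimum count 10, minimum total 15). P-values were adjusted by Benjamini-Hochberg over all tested genes and called below 0.05. CPM uses TMM-scaled library sizes, in which 1 count is 0.0771 to 0.0972 CPM, and standard errors come from the quasi-likelihood F statistic. Ratios of 2 libraries carry exact (Clopper-Pearson) 95% intervals for counting error only. In bulk RNA, fewer cells expressing a gene and less RNA per cell cannot be told apart.

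The members and gene lists were chosen with earlier results of these data known. Values in every library are given for called members, for members whose sensitive libraries differ by at least 0.5 (log2) where mean log2 CPM reaches 3, and, whatever their result, for 16 members at the centre of each role. Of the other lists, called genes are named, and Hmox1 and Tfrc were added after their values were seen. Further members with values, such as Gpi1, Aldoa, Pgk1, Vegfa and Higd1a, were chosen after their values were seen. Alternatives were 3 scalings, 2 filters, DESeq2 1.42.0, limma-voom 3.58.1, the replicate number as a block and leaving out each library. The fit was run on simulated counts with the same spread in every library, whereas the sensitive libraries here differed more than the resistant ones. There it recovered 27 of 50 genes changed 1.25-fold, 42 of 50 changed 1.5-fold and 50 of 50 changed 2-fold. A gene not called may therefore still differ by a small amount. A B-lineage marker and the sum that holds it are not reported here.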

Additional observations from a re-analysis of the deposited data

How the results depend on the processing

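All 9 called members stayed called with DESeq2 size factors, library size only and upper-quartile factors. With at least 50 counts required in every library Egln3 was no longer tested and the other 8 were called. With no filter 10 members were called higher, Bnip3l (edgeR adjusted p = 0.04) in addition. The DESeq2 test called 5 members, Ak4, Egln3, Ero1l, Kdm3a and Slc2a1, and 122 genes higher and 86 lower over the whole table, against 263 and 182 in edgeR. With at least 50 counts in every library 160 genes were higher and 102 lower. Leaving out a library in turn gave 7 to 16 members higher and 0 to 5 lower, 159 to 663 of all genes higher and 111 to 718 lower, with the lone library assumed to vary like the other line's pair. The lowest member count, 7, came without resistant replicate 2, and the highest without sensitive replicate 2. Without sensitive replicate 1 the 5 members called lower were Aldoa, Eno1, Gpi1, Pfkl and Pkm. Among the 21 members given in every library by rule, the sign of the log2 change turned in 3 on leaving out a library, none of them called with all libraries. Other uncalled members turned too, among them Gpi1, Aldoa, Hk1, Pfkl, Tpi1 and Higd1a. Pkm ranged from -0.157 (without sensitive replicate 1) to 0.095 (without sensitive replicate 2) and was 0.018 without resistant replicate 2. Egln2 ranged from -0.009 (without resistant replicate 1) to 0.079 (without resistant replicate 2). Hif1an ranged from -0.141 (without resistant replicate 1) to 0.064 (without resistant replicate 2). The cause of these shifts was not tested. The lines share replicate numbers, but deviations of same-numbered libraries correlated at -0.02 and nothing in the labels pairs them. With the replicate block 11 members were called higher, Bnip3l (adjusted p = 0.0139) and Adm (0.0111) in addition, and 347 genes higher and 248 lower over the table. The member median ranged from 0.05 to 0.17 over all alternatives. Depth limits Egln3, Adm, Hk1, Pfkfb4 and Aldoc, with under 70 counts in every library.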
